A study of Homo sapiens and Mus musculus with 18 samples.

Results

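PANC-1, a human cell line grown from a pancreatic ductal adenocarcinoma, was sequenced with an empty vector and with introduced keratin 17 (K17, gene KRT17). These 6 libraries, 3 per group, were chosen from the 18 of the series by their cell line and treatment labels. The other 12 are a mouse KPC pair and a human L3.6 pair, in a study on K17 in mitochondria and resistance to chemotherapy. The comparison asks which transcripts differ when K17 is present in a line that had almost none. Cells of both groups grew in serum-containing DMEM, and the labels name no drug for them. The labels give neither the promoter nor the copy number of the vector, nor whether a group is 1 clone or the libraries of a group came from separate cultures. Clone, passage and K17 therefore cannot be told apart, and the spread behind every p-value is that between libraries, which may be technical.

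Keratins are the intermediate filament proteins of epithelial cells and assemble as pairs of a type I and a type II chain. K17 is a type I keratin of hair follicles and injured or proliferating stratified epithelium. In pancreatic ductal adenocarcinoma it marks the basal-like subtype. Simple ductal epithelium relies mainly on keratins 8, 18 and 19.

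Empty vector replicate 2 lay far from the remaining libraries, so the comparison was read from empty vector replicates 1 and 3 against the 3 K17 libraries, with the value over all 6 libraries beside it. The libraries held from 59671178 to 70789559 counts. Genes of mitochondrial DNA took 18.8% of the counts of empty vector replicate 2, against 9.88% and 9.99% in the other empty vector libraries and 10.2% to 10.8% with K17. Among genes with at least 5 CPM (counts scaled to a common library size with TMM factors) in the mean of empty vector replicates 1 and 3, 613 of 8682 were at least 4-fold lower in replicate 2 and 69 at least 4-fold higher, while replicates 1 and 3 differed 4-fold in 6. Across 16278 genes, the deviation of replicate 2 from the mean of the other 5 libraries had a rank correlation of -0.25 with summed exon length. For each other library it was 0.11 to 0.17, against a mean that held replicate 2, so these values are not independent of it. They are a description across genes that share a library. What set replicate 2 apart was not tested. Libraries of a group differed by more than sampling noise. Each was counted as 1 sample, though this spread may be technical.

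**Figure D1:**
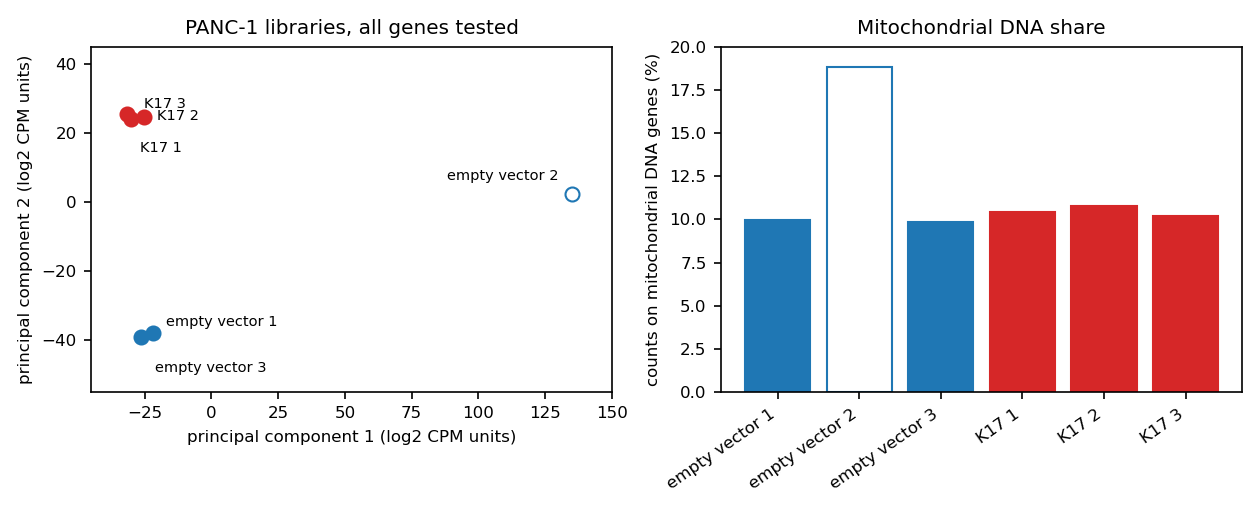
Left, scores of the 6 PANC-1 libraries on the first and second principal components of log2 CPM, with empty vector in blue and K17 in red. Right, the percent of counts on mitochondrial DNA genes per library. Empty vector replicate 2, drawn open, lies at 135.1 on the first component and at 18.8%, and the second component separates the other empty vector libraries (-39.2 and -37.8) from the K17 libraries (24.2 to 25.7).

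KRT17 followed the labels. It was counted 2 times in empty vector replicate 1 and 0 times in replicates 2 and 3, a depth at which 3 counts come to between 0.0426 and 0.047 CPM. With K17 there were 8597, 9884 and 9228 counts, or 139, 165 and 149 CPM. The ratio of summed counts was 10200 against empty vector replicates 1 and 3, with a 95% exact Clopper-Pearson interval of 2820 to 84200 that covers counting error only. The fitted log2 fold change was 13.13 (edgeR adjusted p = 7.35e-06), and 13.65 with all 6 libraries (edgeR adjusted p = 0.00646). Both fitted values depend on the prior count. The row (chr17:41619441-41624842, GRCh38, minus strand) does not separate the introduced copy from the cells' own gene. KRT17P2, a pseudogene of near-identical sequence, had 0 counts in the empty vector libraries and 17, 15 and 23 with K17.

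Of 10 keratin genes with enough counts to be tested, 5 were of type I and 5 of type II. KRT17, the introduced gene, whose rise was set by the design, was the only type I member that rose. Beside it KRT80 and KRT8 rose, where 11.4% of all genes tested did. None fell, with 0 lower at an unadjusted p under 0.05 in edgeR and 0 by DESeq2 or limma-voom. DESeq2 called 2 type I and 2 type II keratins higher. KRT80, a type II keratin, stood at 10.7 and 10.8 CPM in empty vector replicates 1 and 3, 19.3 CPM in replicate 2 and 32.5, 44.7 and 36.3 CPM with K17. That is a log2 fold change of 1.81 ± 0.145 (SE) at an edgeR adjusted p of 0.000543, and 1.48 with all 6 libraries. KRT8, the type II chain of simple epithelium, stood at 569 and 587 CPM in empty vector replicates 1 and 3, 1036 CPM in replicate 2 and 631, 661 and 649 CPM with K17. Its rise over replicates 1 and 3 was small, a log2 fold change of 0.16 (edgeR adjusted p = 0.00978), and replicate 2 lay above all K17 libraries, which turned the 6-library value to -0.18. The type I partners KRT18 and KRT19 had log2 fold changes of 0.28 and 0.09 that did not pass, and the stratified keratin KRT15 had 0.01. Among other intermediate filament genes, the linker SYNM (synemin) rose by 0.66 log2 units (0.94 with all 6 libraries) and the cytolinker PLEC (plectin) by 0.26 (0.51). The nuclear lamins LMNB1 (-0.44) and LMNB2 (-0.21) fell, while vimentin, VIM, the main filament protein of mesenchymal cells, had 0.00. Replicate 2 held LMNB1 at 7.79 CPM, below the K17 libraries at 155 to 165 CPM, and the 6-library value was 0.12.

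Of 16640 genes tested, 3442 or 20.7% passed edgeR's quasi-likelihood test at a Benjamini-Hochberg adjusted p of 0.05. Of all genes tested, 11.4% (1902) were higher and 9.25% (1540) lower with K17. Upper-quartile scaling gave 1549 higher and 2193 lower, so the balance of directions rests on the scaling. Most changes were small: 85.6% of the genes that passed changed by less than 2-fold, and 389 rose and 105 fell by at least 2-fold. With all 6 libraries, 105 of 16295 genes passed, or 0.644%, 95 higher and 10 lower. All 105 were also called over 5 libraries, in the same direction. In replicate 2, 1978 of the 3442 genes lay on the empty vector side of the K17 libraries, 150 within their range and 1314 beyond them. The groups of all 3442 did not overlap in the 5 libraries, as for 48.3% of all genes tested. In 6 libraries 57.5% of the 3442 did not overlap, against 25.4% of all genes tested. In the rest of the text, rose and fell mean passing the test over 5 libraries, log2 fold changes are K17 minus empty vector, and the value over all 6 libraries follows in parentheses. Where 2 values stand in parentheses after a gene, they are its log2 fold changes over 5 and over 6 libraries, and a single value is that over 5. CPM given for the empty vector are those of replicates 1 and 3, in that order, and those for K17 follow the order of its replicates. The lists described below share some members, and their shares are to be set beside the 11.4% higher and 9.25% lower of all genes. A bulk library does not show whether a lower level means fewer cells with a transcript or less of it per cell.

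**Figure D2:**
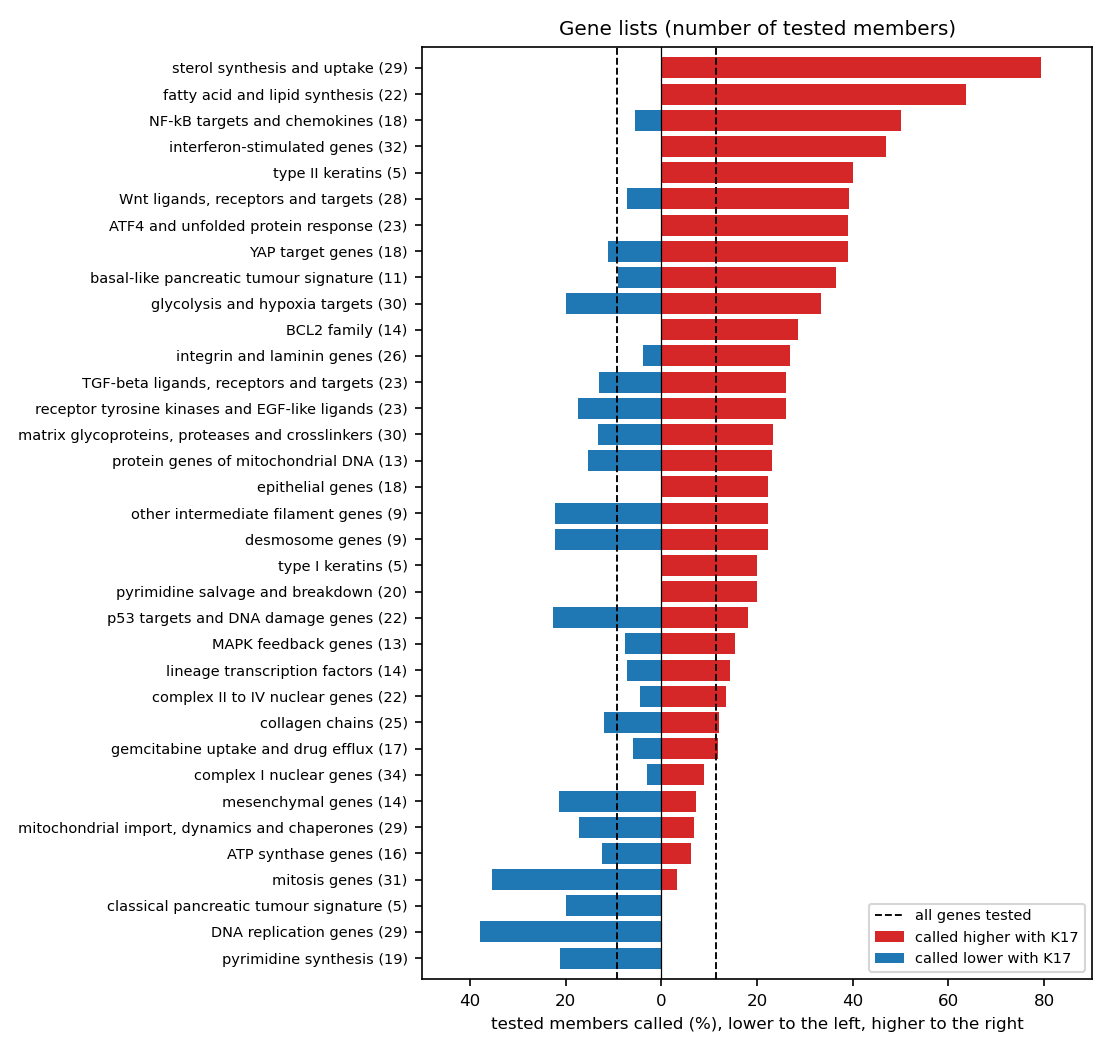
For each gene list, bars give the percent of its tested members that passed edgeR's test, higher with K17 to the right in red and lower to the left in blue, with the number of tested members in parentheses. Dashed lines mark the same percent over all genes tested (11.4% higher and 9.25% lower), and sterol synthesis and uptake reaches 79.3% on the right while DNA replication reaches 37.9% on the left. The red bars of type I keratins and of the basal-like signature include KRT17, the introduced gene.

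The genes with the largest rises were taken among those with a mean of at least 5 CPM over the 5 libraries, and a set of 15 was described in each direction. COL13A1, a collagen with a membrane anchor, stood at 1.62 and 1.44 CPM in empty vector replicates 1 and 3, 2.72 CPM in replicate 2 and 15.6, 14.2 and 14.4 CPM with K17. A fit with edgeR gave a log2 fold change of 3.26 ± 0.115 (SE) at an edgeR adjusted p of 1.15e-05, against 2.93 with all 6 libraries. COL1A1, the main chain of type I collagen, stood at 22 and 22.2 CPM in empty vector replicates 1 and 3, 40.3 CPM in replicate 2 and 141, 142 and 136 CPM with K17. Its log2 fold change was 2.66 ± 0.0368 (SE) at an edgeR adjusted p of 3.83e-07, against 2.31 over 6 libraries. In both genes the K17 libraries lay above all 3 empty vector libraries. NCR3LG1, the B7-H6 ligand of a natural killer cell receptor, stood at 15 and 15.9 CPM with empty vector, 4.31 CPM in its replicate 2 and 84.5, 75.9 and 74.4 CPM with K17, with a log2 fold change of 2.34 (2.74). MYLK, the myosin light chain kinase of smooth muscle, stood at 77.3 and 78.4 CPM with empty vector, 33.6 CPM in its replicate 2 and 323, 312 and 320.0 CPM with K17, with a log2 fold change of 2.03 (2.33) and the joint lowest adjusted p of all genes (edgeR adjusted p = 3.83e-07). SPOCK1, a secreted proteoglycan, stood at 15.1 and 12.1 CPM with empty vector, 5.97 CPM in its replicate 2 and 54, 53 and 55.2 CPM with K17, with a log2 fold change of 1.99 (2.29). Replicate 2 lay below replicates 1 and 3 in NCR3LG1, MYLK and SPOCK1, so the distance to the K17 libraries was larger there. The hyaluronan receptor LAYN stood at 16.7 and 15 CPM with empty vector, 18 CPM in its replicate 2 and 69.1, 67.5 and 66.6 CPM with K17 and rose by 2.09 log2 units (2.03). The adenylate kinase AK5 stood at 5.37 and 6.37 CPM with empty vector, 7.01 CPM in its replicate 2 and 30.4, 30.1 and 29.2 CPM with K17 and rose by 2.35 log2 units (2.26). FFAR4, a receptor for long-chain fatty acids, stood at 4.09 and 3.998 CPM with empty vector, 6.4 CPM in its replicate 2 and 15.9, 17.6 and 17.4 CPM with K17 and rose by 2.07 log2 units (1.81). No overlap between the groups in the 5 libraries was a condition of choosing these genes, and they did not overlap in 6 libraries either.

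Other genes among the 15 that rose most were the vitamin D receptor VDR, the desmosomal cadherin DSC3, the membrane protein gene TMEM255B and the zinc finger gene ZNF275. VDR, a nuclear receptor, stood at 2.1 and 1.63 CPM with empty vector, 1.97 CPM in its replicate 2 and 7.64, 8.57 and 7.91 CPM with K17 and rose by 2.1 log2 units (2.08). TMEM255B stood at 4.12 and 4.15 CPM with empty vector, 6.85 CPM in its replicate 2 and 19.8, 21.9 and 19.8 CPM with K17 and rose by 2.31 log2 units (2.02), and ZNF275 at 3.39 and 3.06 CPM with empty vector, 6.57 CPM in its replicate 2 and 15.3, 12.5 and 11.5 CPM with K17, with 2.02 (1.59). None of the 15 overlapped between the groups in the 6 libraries. Of them, COL13A1, COL1A1, WNT5A, AK5, TMEM255B, VDR, LAYN and FFAR4 passed with all 6 libraries beside KRT17.

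**Figure D3:**
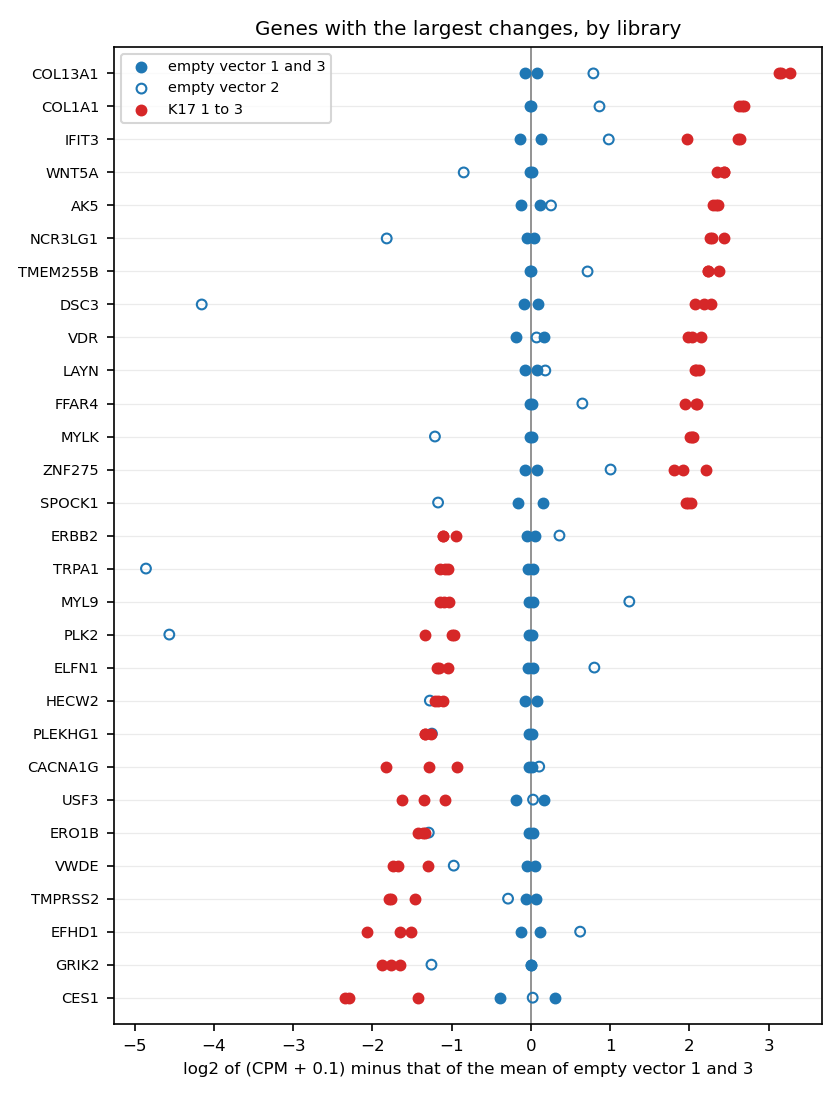
Genes with the largest rises and falls other than KRT17, among those with a mean of at least 5 CPM over the 5 libraries, with each point a library, on a log2 scale of CPM + 0.1 relative to the mean of empty vector replicates 1 and 3. K17 libraries (red) lie to the right for 14 genes and to the left for 15, and empty vector replicate 2 (open) lies beyond the K17 libraries for PLK2, TRPA1 and HECW2.

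Among genes with at least 5 CPM, the largest falls were smaller than the largest rises. CES1, a liver carboxylesterase that cleaves esters and some prodrugs, stood at 16 and 25.8 CPM with empty vector, 21.2 CPM in its replicate 2 and 7.74, 4.03 and 4.17 CPM with K17. The fitted log2 fold change was -1.98 ± 0.363 (SE) at an edgeR adjusted p of 0.0199, against -1.98 over 6 libraries, and its empty vector libraries differed among themselves. TMPRSS2, a transmembrane serine protease of epithelia, stood at 16.7 and 18.3 CPM with empty vector, 14.3 CPM in its replicate 2 and 5.08, 4.99 and 6.28 CPM with K17 and fell with a log2 fold change of -1.68 (-1.59). The kainate receptor gene GRIK2 stood at 11.9 and 11.8 CPM with empty vector, 4.9 CPM in its replicate 2 and 3.42, 3.15 and 3.71 CPM with K17, with -1.79 (-1.47). EFHD1, a calcium-binding protein of mitochondria, stood at 9.56 and 11.2 CPM with empty vector, 16.1 CPM in its replicate 2 and 2.42, 3.23 and 3.59 CPM with K17, with -1.76 (-1.996). In these genes every K17 library lay below every empty vector library. ERO1B, an oxidase that forms disulfide bonds in the endoplasmic reticulum, stood at 63.6 and 66.3 CPM with empty vector, 26.5 CPM in its replicate 2 and 24.1, 25.3 and 25.7 CPM with K17, with -1.38 (-1.06). ERBB2, the receptor kinase HER2, stood at 24.3 and 22.6 CPM with empty vector, 30.1 CPM in its replicate 2 and 10.8, 10.8 and 12.1 CPM with K17, with -1.07 (-1.19). MYL9, a regulatory myosin light chain, stood at 20.4 and 21.2 CPM with empty vector, 49.3 CPM in its replicate 2 and 9.31, 9.65 and 10.1 CPM with K17, with -1.1 (-1.64). Of these, TMPRSS2, EFHD1 and ERBB2 passed with all 6 libraries. The other falls among the 15 were VWDE (-1.58), USF3 (-1.35), the calcium channel gene CACNA1G (-1.33), PLEKHG1 (-1.32), the ubiquitin ligase gene HECW2 (-1.17), ELFN1 (-1.14), the polo-like kinase PLK2 (-1.11) and the irritant-gated channel TRPA1 (-1.09). Empty vector replicate 2 held PLK2 at 0.602 CPM, TRPA1 at 1.73 CPM and HECW2 at 8.32 CPM, below their K17 libraries, with 6-library values of -0.55, -0.53 and -0.85.

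Genes of cholesterol synthesis and uptake rose together. Cells make cholesterol from acetyl-CoA through mevalonate, squalene and lanosterol, and also take it up as lipoprotein. When sterol in the endoplasmic reticulum is low, the sensor SCAP releases the transcription factor SREBP2 (gene SREBF2), which switches on these genes, while INSIG proteins hold SCAP back. Of 34 genes listed, 32 were in the files and 29 had enough counts to be tested. Of these 29, 23 or 79.3% rose and none fell (0 lower at an unadjusted p under 0.05 and 0 by DESeq2 or limma-voom), against 11.4% and 9.25% of all genes, and the median log2 fold change was 1.05 against 0.01 over all genes. With all 6 libraries 5 passed (17 were higher at an unadjusted p under 0.05) and the median was 0.95. In empty vector replicate 2, 20 of the 23 lay on the empty vector side of the K17 libraries, 3 within their range and 0 beyond.

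In the first steps, HMGCS1, a synthase of the mevalonate pathway, stood at 90.1 and 92.4 CPM with empty vector, 48 CPM in its replicate 2 and 219, 224 and 209 CPM with K17. Fitted over 5 libraries, the log2 fold change was 1.25 ± 0.0371 (SE) at an edgeR adjusted p of 7.60e-06, against 1.5 over 6 libraries. The later mevalonate enzymes MVK (1.16), MVD (1.27), IDI1 (1.12) and FDPS (1.05) rose, as did the thiolase ACAT2 (0.96). IDI1, the isomerase, stood at 124 and 127 CPM with empty vector, 103 CPM in its replicate 2 and 278, 278 and 261 CPM with K17, and its 6-library value of 1.21 also passed (edgeR adjusted p = 0.0347). In the sterol branch, the squalene epoxidase SQLE rose by 1.06 log2 units and the cyclase LSS by 1.19 (1.29). LSS stood at 25.7 and 26.6 CPM with empty vector, 21.2 CPM in its replicate 2 and 58.3, 59.2 and 61.7 CPM with K17, with no overlap. The demethylase CYP51A1 rose by 0.95 log2 units (1.53), with replicate 2 at 0.22 CPM against 16.8 and 20.1 CPM in replicates 1 and 3. Further along, MSMO1 (1.44), NSDHL (0.66), HSD17B7 (1.22), TM7SF2 (1.4) and SC5D (0.89) rose. DHCR7, which makes cholesterol in the last step, stood at 47.9 and 48.3 CPM with empty vector, 55.4 CPM in its replicate 2 and 156, 159 and 143 CPM with K17. The log2 fold change was 1.66 ± 0.05 (SE) at an edgeR adjusted p of 7.60e-06, against 1.6 over 6 libraries. FDFT1, the squalene synthase, had a log2 fold change of 0.62 and EBP, a sterol isomerase, of 0.04, and neither passed. MSMO1, SQLE and NSDHL were the genes of the list whose replicate 2 lay within the range of the K17 libraries.

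Some uptake and control genes rose too. STARD4, a cholesterol carrier, rose by 1.46 log2 units (1.94) and TMEM97 by 0.50 (0.54). INSIG1, a target of SREBP2 as well as its brake, stood at 17.2 and 19.1 CPM with empty vector, 12.6 CPM in its replicate 2 and 66.3, 76.3 and 69.3 CPM with K17. That is a log2 fold change of 1.96 ± 0.0781 (SE) at an edgeR adjusted p of 1.96e-05, against 2.12 over 6 libraries, the largest of the list. INSIG2, its relative, rose by 0.36 log2 units (0.62). SREBF2 itself stood at 18.9 and 16.7 CPM with empty vector, 13.1 CPM in its replicate 2 and 45.1, 35.8 and 32.7 CPM with K17 and rose by 1.08 log2 units (1.22), while SCAP had a log2 fold change of -0.11 that did not pass. Genes that lower cellular cholesterol did not pass: ABCG1, which exports sterol, had -0.46, and MYLIP, a ubiquitin ligase of lipid metabolism, had 0.04.

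**Figure D4:**
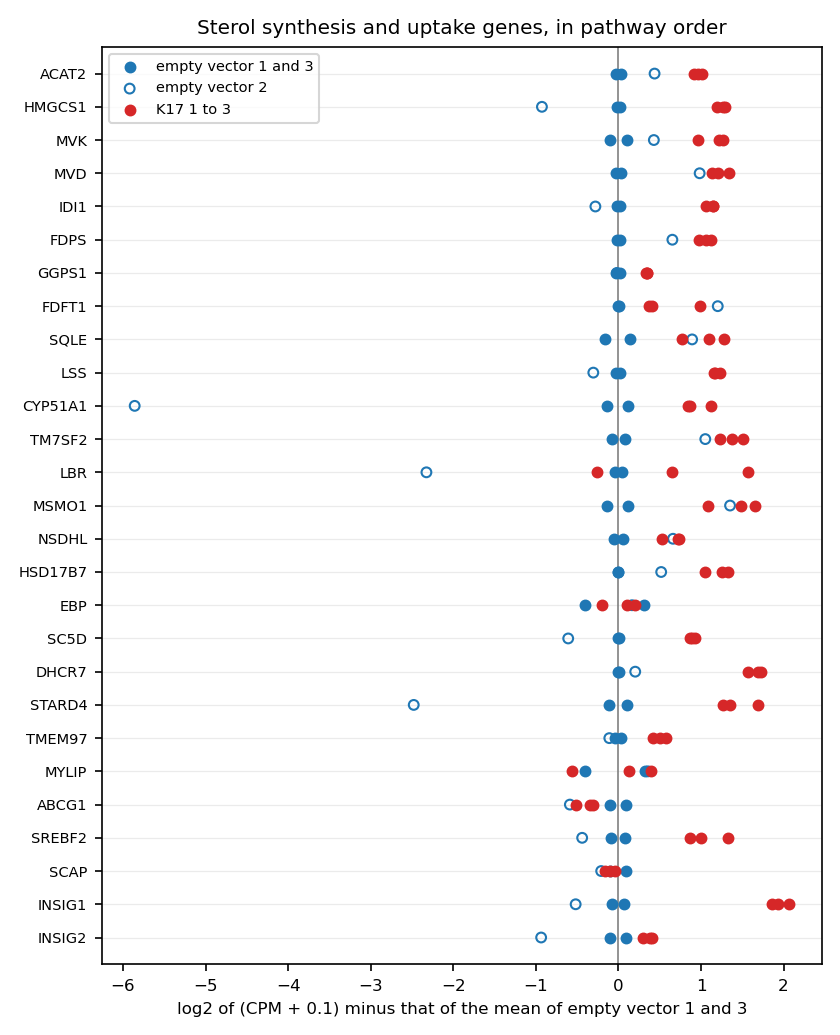
Of the tested genes of sterol synthesis and uptake, 27 are drawn in pathway order from top to bottom, with each point a library, on a log2 scale of CPM + 0.1 relative to the mean of empty vector replicates 1 and 3. The K17 libraries (red) lie to the right of those 2 in the 21 genes among them that rose, and empty vector replicate 2 (open) lies far to the left in CYP51A1.

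The promoter of SREBF2 is shown because it was the 1 promoter of the list that held the sterol element searched for, TCACNCCAC, on either strand in the 250 bases before the start. The window lies at chr22:41832855-41833104 on the plus strand of GRCh38.p14 (RefSeq), and capitals mark the match, which begins 133 bases before the start.
SREBF2: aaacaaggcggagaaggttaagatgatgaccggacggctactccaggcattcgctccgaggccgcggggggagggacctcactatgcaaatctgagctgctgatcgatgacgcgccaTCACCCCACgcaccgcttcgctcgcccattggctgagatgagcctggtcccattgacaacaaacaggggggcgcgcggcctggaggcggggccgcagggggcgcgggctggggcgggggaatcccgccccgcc
The element was found in 1 of 23 tested genes of the list with a promoter at hand, in 17 of 1474 genes that rose (1.15%), in 4 of 1235 that fell (0.324%) and in 239 of all 27305 promoters (0.875%). A match describes letters, not binding, and its absence is no statement on the factor.

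Genes of fatty acid and lipid synthesis followed, several of them controlled by the sister factor SREBP1. Of 25 listed genes, 22 were tested, 14 or 63.6% rose and none fell (0 lower at an unadjusted p under 0.05 and 0 by DESeq2 or limma-voom), with a median log2 fold change of 0.53. Over 6 libraries 2 passed. FADS2, a desaturase of polyunsaturated fatty acids, stood at 47.4 and 52.9 CPM with empty vector, 62.9 CPM in its replicate 2 and 137, 143 and 137 CPM with K17. A fit with edgeR gave a log2 fold change of 1.47 ± 0.0507 (SE) at an edgeR adjusted p of 1.10e-05, against 1.35 over 6 libraries. Its neighbour on the pathway FADS1 rose by 0.86 log2 units (0.86). LPIN1, a phosphatidate phosphatase, stood at 87.9 and 86.6 CPM with empty vector, 64.3 CPM in its replicate 2 and 189, 196 and 179 CPM with K17 and rose by 1.11 log2 units (1.24). In these genes the groups did not overlap in 6 libraries. SREBF1 rose by 1.004 log2 units (0.83), the lipase PNPLA3 by 1.04 (1.13) and the elongase ELOVL6 by 0.59 (0.73). FASN, the fatty acid synthase, stood at 3.02 and 1.99 CPM with empty vector, 7.91 CPM in its replicate 2 and 5.22, 4.65 and 4.8 CPM with K17, a rise of 0.96 over replicates 1 and 3 that replicate 2 exceeded (0.18). The carboxylase ACACA rose by 0.54 log2 units (0.96) and the citrate lyase ACLY by 0.35 (0.64). The elongase ELOVL5 had 0.04 and the acyltransferase GPAM -0.08, and neither passed.

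Wnt ligands signal through Frizzled receptors, either by stabilising beta-catenin, which works with TCF and LEF factors, or through ROR and RYK receptors without it. WNT5A mainly uses the second route. Of 41 listed genes, 28 were tested, 11 or 39.3% rose and 2 fell, with a median log2 fold change of 0.53. Over 6 libraries 3 passed, WNT5A, FZD7 and DKK3. Among ligands, WNT5A stood at 2.93 and 2.89 CPM with empty vector, 1.57 CPM in its replicate 2 and 15.2, 16.1 and 16.2 CPM with K17. Its log2 fold change was 2.44 ± 0.0939 (SE) at an edgeR adjusted p of 1.40e-05, against 2.68 over 6 libraries. WNT5B rose by 0.31 log2 units (0.05), with replicate 2 above the K17 libraries. Among receptors, FZD7 stood at 29.6 and 28.7 CPM with empty vector, 23.9 CPM in its replicate 2 and 57, 57.5 and 56.5 CPM with K17. The fitted log2 fold change was 0.96 ± 0.0416 (SE) at an edgeR adjusted p of 2.25e-05, against 1.06 over 6 libraries. FZD3 stood at 0.114 and 0.157 CPM with empty vector, 2.19 CPM in its replicate 2 and 2.09, 0.887 and 2.44 CPM with K17 and rose by 3.73 log2 units (1.14), with replicate 2 within the range of the K17 libraries. Over 5 libraries FZD3 entered the test through its K17 counts alone, so it could pass only as a rise. FZD1 rose by 0.54 log2 units (0.55). Of the WNT5A receptors, ROR1 stood at 74.7 and 70.9 CPM with empty vector, 47.9 CPM in its replicate 2 and 107, 103 and 101 CPM with K17 and rose by 0.51 log2 units (0.69), ROR2 stood at 2.49 and 2.2 CPM with empty vector, 1.23 CPM in its replicate 2 and 0.535, 1.07 and 0.937 CPM with K17 with -1.47 (-1.22), and RYK had -0.11 (0.08). So ROR1 rose while ROR2 and RYK fell over 5 libraries, and RYK changed sign with replicate 2.

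Among nuclear factors and antagonists of the pathway, LEF1 stood at 0.696 and 1.02 CPM with empty vector, 0.866 CPM in its replicate 2 and 2.12, 2.14 and 2.23 CPM with K17 and rose by 1.34 log2 units (1.33). TCF7 stood at 10.3 and 11.5 CPM with empty vector, 16.1 CPM in its replicate 2 and 20.1, 21.4 and 19.9 CPM with K17 and rose by 0.90 log2 units (0.69). The secreted antagonist DKK3 stood at 115 and 108 CPM with empty vector, 129 CPM in its replicate 2 and 225, 231 and 230.1 CPM with K17 and rose by 1.03 log2 units (0.96), and SFRP1, another, at 95.3 and 89.4 CPM with empty vector, 52.4 CPM in its replicate 2 and 157, 160.1 and 155 CPM with K17, with 0.77 (0.99). Replicate 2 lay on the empty vector side in each of these 4. The feedback targets AXIN2, RNF43 and ZNRF3 had log2 fold changes of 1.01, 0.34 and -0.08 and did not pass, nor did the antagonist DKK1 (0.00).

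**Figure D5:**
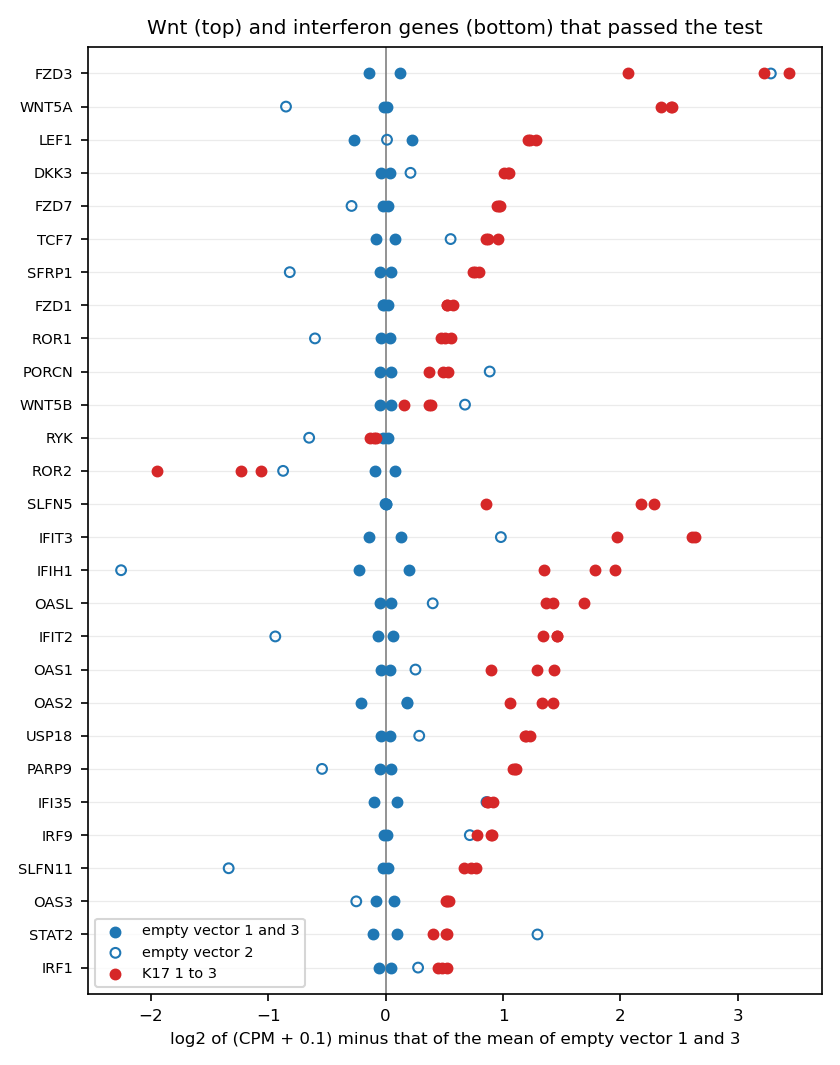
Wnt genes (FZD3 to ROR2) and interferon-stimulated genes (SLFN5 to IRF1) that passed over 5 libraries, with each point a library, on a log2 scale of CPM + 0.1 relative to the mean of empty vector replicates 1 and 3. K17 libraries (red) lie to the left in RYK and ROR2 and to the right in the other genes drawn, and empty vector replicate 2 (open) lies beyond them in PORCN, WNT5B, RYK and STAT2.

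Interferons act through the factor ISGF3, which holds STAT2 and IRF9 and binds the response element of these genes. Of 35 listed genes, 32 were tested, 15 or 46.9% rose and none fell (0 lower at an unadjusted p under 0.05 and 0 by DESeq2 or limma-voom), with a median log2 fold change of 0.63. In the 6-library fit 0 of them passed in edgeR, while 11 were higher at an unadjusted p under 0.05 and 16 passed in limma with quality weights. For the genes below, 60 bases of the RefSeq promoter (GRCh38.p14) are shown to set genes that rose beside genes that did not pass. Capitals mark matches on either strand of the response element searched for, GAAA followed by 2 bases of any kind and GAAA again. The run in ISG15 holds 2 matches that overlap.
IFIT3: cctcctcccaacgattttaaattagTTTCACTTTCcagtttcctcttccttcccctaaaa
IFIH1: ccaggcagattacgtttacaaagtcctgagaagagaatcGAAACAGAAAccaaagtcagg
OAS3: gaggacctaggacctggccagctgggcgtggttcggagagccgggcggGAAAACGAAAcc
IFIT1: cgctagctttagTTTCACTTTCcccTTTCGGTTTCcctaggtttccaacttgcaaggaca
IFI6: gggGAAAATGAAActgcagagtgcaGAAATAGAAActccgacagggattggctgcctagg
ISG15: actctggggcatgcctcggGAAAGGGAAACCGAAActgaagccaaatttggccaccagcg
The stretches lie at chr10:89327850-89327909 (IFIT3, plus strand), chr2:162318685-162318744 (IFIH1, minus strand), chr12:112938414-112938473 (OAS3, plus strand), chr10:89392495-89392554 (IFIT1, plus strand), chr1:27672251-27672310 (IFI6, minus strand) and chr1:1013365-1013424 (ISG15, plus strand), each written along the strand of its gene. In the 250 bases before the start, the element was found in 3 of 10 genes of the list that rose (IFIT3, IFIH1 and OAS3) and in 9 of 12 that did not pass, counting those with a promoter at hand. All 27305 promoters held it in 3.07%. This motif was chosen after the values were seen.

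IFIT3, a protein that restrains viral RNA, stood at 1.19 and 1.46 CPM with empty vector, 2.72 CPM in its replicate 2 and 5.5, 8.75 and 8.59 CPM with K17. Fitted over 5 libraries, the log2 fold change was 2.52 ± 0.256 (SE) at an edgeR adjusted p of 0.000985, against 2.09 over 6 libraries. IFIT2, its partner, stood at 15.6 and 14.3 CPM with empty vector, 7.75 CPM in its replicate 2 and 37.9, 41.4 and 41.4 CPM with K17 and rose by 1.42 log2 units (1.68). PARP9, an ADP-ribosyltransferase family member, stood at 36.4 and 38.9 CPM with empty vector, 25.9 CPM in its replicate 2 and 81.3, 81.6 and 79.99 CPM with K17 and rose by 1.1 log2 units (1.26). In these 3 genes every K17 library lay above every empty vector library. The RNA sensor IFIH1 stood at 1.89 and 1.38 CPM with empty vector, 0.264 CPM in its replicate 2 and 5.87, 4.32 and 6.62 CPM with K17 and rose by 1.77 log2 units (2.25). USP18, which removes ISG15 from proteins, stood at 3.46 and 3.67 CPM with empty vector, 4.37 CPM in its replicate 2 and 8.29, 8.27 and 8.48 CPM with K17 and rose by 1.22 log2 units (1.12). The OAS family genes OASL (1.7), OAS1 (1.39), OAS2 (1.37) and OAS3 (0.54) rose from under 3 CPM. SLFN5 had 0 counts in all 3 empty vector libraries and 50 in the K17 libraries together, at least 12.3-fold higher against 3 counts over empty vector replicates 1 and 3. It had enough counts to be tested only through the K17 libraries, so it could pass only as a rise, and it is counted among the 15. Among factors of the pathway, IRF9 rose by 0.87 log2 units (0.59) and IRF1 by 0.48 (0.39). STAT2 rose by 0.48 log2 units over 5 libraries, but replicate 2 lay above the K17 libraries and the 6-library value was -0.09. ISG15 had a log2 fold change of -0.14, MX2 of -0.01 and MX1 of 0.27, none passing. With SLFN5 at its lower bound the list's median was still 0.63.

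Of 18 tested chemokines and NF-kB targets, 9 or 50% rose and 1 fell, with a median log2 fold change of 0.49. Over 6 libraries 1 passed. CCL2, which attracts monocytes, stood at 63.3 and 59.9 CPM with empty vector, 71.2 CPM in its replicate 2 and 198, 199 and 201 CPM with K17. The log2 fold change was 1.69 ± 0.0368 (SE) at an edgeR adjusted p of 3.13e-06, against 1.62 over 6 libraries (edgeR adjusted p = 0.0152). CXCL1, which attracts neutrophils, stood at 35.9 and 36.1 CPM with empty vector, 45.8 CPM in its replicate 2 and 18.8, 20.9 and 17.2 CPM with K17 and was the 1 gene that fell, with -0.93 (-1.05). The subunit NFKB2 rose by 0.77 log2 units (0.72), the inhibitor NFKBIA by 0.56 (0.45), complement C3 by 0.88 (0.91) and TNFAIP2 by 0.55 (0.50). The cytokine LIF rose by 1.28 log2 units from under 1 CPM. Replicate 2 lay on the empty vector side in all 10 genes of this list that passed. Without empty vector replicate 3, 5 genes were higher.

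Of 14 tested BCL2 family genes, which set the threshold of apoptosis at mitochondria, 4 or 28.6% rose and none fell (1 lower at an unadjusted p under 0.05 in edgeR and 0 by DESeq2 or limma-voom), with a median of 0.13. BCL2L1, whose main product BCL-XL blocks apoptosis, stood at 57.1 and 52.9 CPM with empty vector, 54.8 CPM in its replicate 2 and 139, 137 and 133 CPM with K17. That is a log2 fold change of 1.31 ± 0.0453 (SE) at an edgeR adjusted p of 1.10e-05, against 1.31 over 6 libraries (edgeR adjusted p = 0.0183). BMF, which promotes it, stood at 5.78 and 6.87 CPM with empty vector, 6.15 CPM in its replicate 2 and 18.8, 18.5 and 21.4 CPM with K17 and rose by 1.63 log2 units (1.64, edgeR adjusted p = 0.0221). BCL2 rose by 1.21 log2 units (1.54) and PMAIP1, the promoter of apoptosis NOXA, by 0.38 (0.60). So members of both kinds rose, and the groups did not overlap in 6 libraries for these 4. MCL1 (0.15), BAX (0.07) and BCL2L11 (-0.01) did not pass. Of 22 tested p53 targets and DNA damage genes, 4 or 18.2% rose and 5 or 22.7% fell, against 11.4% and 9.25% of all genes, with a median of -0.05. The death receptor genes FAS (0.61, 0.86 with 6 libraries) and TNFRSF10B (0.70, 0.49) and TP53INP1 (0.80, 0.80) rose, with replicate 2 within the K17 range for TNFRSF10B, as did DDB2 (0.27, 0.04), with replicate 2 above it. SESN1 (-0.31, -0.05) was among those that fell, with replicate 2 below the K17 libraries. CDKN1A (0.21) and MDM2 (-0.22) did not pass. Without empty vector replicate 1 or K17 replicate 3 the 5 that fell became 2, without empty vector replicate 3 they became 3, and without empty vector replicate 1 the 4 that rose became 2.

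Genes of the extracellular matrix changed in both directions. Of 25 tested collagen chains, 3 rose and 3 fell, shares of 12% each that are near those of all genes, with a median of -0.06. Beside COL13A1 and COL1A1, COL18A1 rose by 0.41 log2 units, with replicate 2 above the K17 libraries (-0.22). COL3A1, the chain of type III collagen, stood at 3.18 and 2.85 CPM with empty vector, 2.57 CPM in its replicate 2 and 0.405, 0.418 and 0.371 CPM with K17. A fit with edgeR gave a log2 fold change of -2.92 ± 0.18 (SE) at an edgeR adjusted p of 0.000102, against -2.84 over 6 libraries. COL6A2 had -1.63 (-1.96) and COL11A1, at 144 and 148 CPM with empty vector, 125 CPM in its replicate 2 and 92.6, 108 and 93.4 CPM with K17, -0.58 (-0.50). COL1A2, the partner chain of COL1A1 in type I collagen, stood at 0.653 and 0.815 CPM with empty vector, 0.338 CPM in its replicate 2 and 0.73, 0.837 and 1.1 CPM with K17, with a log2 fold change of 0.27 that did not pass. COL1A1 thus rose without a change of COL1A2 that passed, and COL3A1 fell.

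Of 30 tested matrix glycoproteins, proteases and crosslinkers, 7 or 23.3% rose and 4 or 13.3% fell, with a median of 0.09. LOX, which crosslinks collagen, stood at 0.823 and 0.784 CPM with empty vector, 0.88 CPM in its replicate 2 and 4.8, 4.65 and 3.94 CPM with K17. Its log2 fold change was 2.47 ± 0.167 (SE) at an edgeR adjusted p of 0.00015, against 2.43 over 6 libraries (edgeR adjusted p = 0.0152). TIMP2, an inhibitor of metalloproteases, stood at 33.6 and 34.1 CPM with empty vector, 30.3 CPM in its replicate 2 and 102, 101 and 100 CPM with K17. The fitted log2 fold change was 1.58 ± 0.034 (SE) at an edgeR adjusted p of 3.13e-06, against 1.63 over 6 libraries (edgeR adjusted p = 0.0152). These were the genes of this list that passed with all 6 libraries. LOXL1 rose by 1.07 log2 units (0.66), with replicate 2 within the K17 range, the protease inhibitor TIMP1 by 0.51 (0.19), with replicate 2 above it, and the collagen hydroxylase P4HA2 by 0.53 (0.56). The protease MMP9 fell with -2.17 (-2.27) from under 1 CPM, and fibronectin, FN1, had 0.13, which did not pass. Without empty vector replicate 3, 4 genes of the list were higher.

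Of 26 tested integrin and laminin genes, 7 or 26.9% rose and 1 fell, with a median of 0.20. With all 6 libraries 0 passed in edgeR, while 4 were higher at an unadjusted p under 0.05 and 7 passed in limma with quality weights. LAMA3, a laminin chain of the basement membrane under stratified epithelium, stood at 4.33 and 4.42 CPM with empty vector, 1.66 CPM in its replicate 2 and 8.84, 8.2 and 7.82 CPM with K17 and rose by 0.92 log2 units (1.26). LAMB1 rose by 0.84 log2 units and the integrin ITGA3 by 0.53, with replicate 2 above the K17 libraries in both (-0.02 and 0.02). ITGB3 rose by 0.40 log2 units (0.78), and ITGB6 by 3.33 (2.64) from 6 counts or fewer per empty vector library. ITGB6 was tested only because of its K17 counts, so it could pass only as a rise, and it is among the 7. The common beta subunit ITGB1 stood at 194 and 209 CPM with empty vector, 30.2 CPM in its replicate 2 and 153, 154 and 161 CPM with K17, with -0.37 over 5 libraries and 0.11 over 6.

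TGF-beta and YAP genes also split. TGFBI, a secreted protein induced by TGF-beta, stood at 43.2 and 36.3 CPM with empty vector, 83.5 CPM in its replicate 2 and 135, 145 and 137 CPM with K17. Fitted over 5 libraries, the log2 fold change was 1.8 ± 0.0845 (SE) at an edgeR adjusted p of 9.06e-05, against 1.35 over 6 libraries. LTBP1, which stores latent TGF-beta in the matrix, stood at 80.6 and 77.7 CPM with empty vector, 47.2 CPM in its replicate 2 and 160.2, 157 and 157 CPM with K17 and rose by 0.996 log2 units (1.21). In both, every K17 library lay above every empty vector library. The receptor ACVR1 rose by 0.51 log2 units (0.71), and LTBP3 by 0.42 (0.15) with replicate 2 above the K17 libraries. In all, 6 of 23 tested genes of the TGF-beta list rose (26.1%) and 3 fell (13%), against 11.4% and 9.25% of all genes, with a median of 0.08. In 6 of these 9 replicate 2 lay beyond the K17 libraries. The ligands TGFB1 (0.28) and TGFB2 (-0.23) were 2 of the 6, with 6-library values of -0.14 and 0.07. Of 18 tested YAP targets, 7 or 38.9% rose and 2 or 11.1% fell, with a median of 0.33. Of these, NUAK2 rose by 0.66 log2 units (0.49), WWC1 by 0.46 (0.45) and ANKRD1 by 0.99 (0.70), while CYR61 had -0.46 and did not pass. Tissue factor, F3, rose by 1.9 log2 units from under 0.1 CPM with replicate 2 above the K17 libraries (-0.31), and the phosphatase PTPN14 fell with -0.42 and replicate 2 below them (-0.20). Over 5 libraries F3 entered the test through its K17 counts alone, so it could pass only as a rise.

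Cell junction genes moved singly. DSP, desmoplakin, which ties desmosomes to keratin filaments, stood at 2.24 and 3.32 CPM with empty vector, 2.63 CPM in its replicate 2 and 0.487, 0.77 and 0.468 CPM with K17. The log2 fold change was -2.28 ± 0.283 (SE) at an edgeR adjusted p of 0.00182, against -2.25 over 6 libraries (edgeR adjusted p = 0.0411). The desmosomal cadherins DSC3 and DSC2 moved the other way. DSC3 stood at 1.79 and 1.57 CPM with empty vector, 0 CPM in its replicate 2 and 7.99, 7.34 and 8.51 CPM with K17 and rose by 2.24 log2 units (2.83), and DSC2 at 2.002 and 2.56 CPM with empty vector, 1.23 CPM in its replicate 2 and 5.98, 5.72 and 6.38 CPM with K17, with 1.4 (1.64). Plakophilin 4, PKP4, fell with -0.18 (-0.07), with replicate 2 below the K17 libraries, and plakoglobin, JUP, had 0.14, which did not pass. In all, 2 of 9 tested desmosome genes rose and 2 fell, 22.2% each, against 11.4% and 9.25% of all genes. Of 18 tested epithelial genes, 4 or 22.2% rose and none fell (2 lower at an unadjusted p under 0.05 in edgeR, 1 by DESeq2 and 0 by limma-voom), with a median of 0.09. They were the protease inhibitor SPINT1, at 1.75 and 2.1 CPM with empty vector, 3.61 CPM in its replicate 2 and 6.49, 7.18 and 7.32 CPM with K17 with 1.86 (1.49), and the claudins CLDN4 (0.68, 0.49), CLDN1 (1.15, 1.65) and CLDN3 (1.36, 0.40). Replicate 2 lay above the K17 libraries in CLDN3. E-cadherin, CDH1, at 0.37 CPM in the mean of replicates 1 and 3, had 1.21 and did not pass. Of 14 tested mesenchymal genes, TPM1 rose by 0.35 log2 units (0.30) and MYL9, TPM2 (-0.29, -0.76) and ZEB1 (-0.24, 0.14) fell, with replicate 2 below the K17 libraries in ZEB1. That is 7.14% higher and 21.4% lower, against 11.4% and 9.25% of all genes.

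Of the tumour subtype signatures, the basal-like list had 11 tested genes, of which 4 or 36.4% rose and 1 or 9.09% fell, with a median of 0.33. KRT17, the introduced gene, was 1 of the 4, and its rise was set by the design. The others were the retinol dehydrogenase DHRS9, at 2.53 and 2.57 CPM with empty vector, 3.46 CPM in its replicate 2 and 5.76, 5.12 and 5.23 CPM with K17 with 1.07 (0.91), the glucose transporter SLC2A1, at 24.4 and 23.3 CPM with empty vector, 35.1 CPM in its replicate 2 and 50.04, 48.8 and 48.2 CPM with K17 with 1.04 (0.83), and the cathepsin CTSV (0.39, 0.40). FGFBP1, a carrier of fibroblast growth factors, fell with -1.59 (-1.92) from under 1 CPM, and S100A2 had -0.20 and did not pass. Of the 26 classical genes listed, 5 had enough counts, and AGR2, a disulfide isomerase of mucous cells, stood at 239 and 243 CPM with empty vector, 356 CPM in its replicate 2 and 191, 215 and 205 CPM with K17 and fell with -0.25 (-0.46). Of 14 tested lineage factors, RUNX2 (0.49, 0.80) and RUNX1 (0.17, 0.38) rose and KLF5 (-0.75, -0.50) fell, with replicate 2 within the K17 range in KLF5, while SOX9 (0.41) and TP63 (0.37) did not pass. The shares of 14.3% higher and 7.14% lower are near the 11.4% and 9.25% of all genes.

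Receptor tyrosine kinases changed in both directions, 6 of 23 tested up (26.1%) and 4 down (17.4%), against 11.4% and 9.25% of all genes, with a median of 0.09. ERBB2 fell, as given above, while its partner ERBB3 stood at 2.87 and 3.07 CPM with empty vector, 3.45 CPM in its replicate 2 and 4.95, 4.99 and 5.15 CPM with K17 and rose by 0.76 log2 units (0.68). EPHB2, an ephrin receptor, stood at 128 and 128 CPM with empty vector, 153 CPM in its replicate 2 and 237, 232 and 216 CPM with K17 and rose by 0.84 log2 units (0.75). FGFR3 stood at 2.77 and 3.36 CPM with empty vector, 4.87 CPM in its replicate 2 and 1.38, 1.52 and 1.92 CPM with K17, with -0.93 (-1.19). The groups did not overlap in these genes in 6 libraries. MET rose by 0.14 log2 units (0.48), INSR by 0.84 (0.49) with replicate 2 within the K17 range, and ERBB4 by 2.9 (3.48) from 6 counts or fewer per empty vector library. Only its K17 counts let ERBB4 into the test, so it could pass only as a rise, and it is among the 6. EGFR had -0.15 and did not pass. The 6 that rose became 3 without empty vector replicate 1 and 2 without its replicate 3, and the 4 that fell became 1 without replicate 3. Of 13 tested genes of MAPK feedback, SPRY4 (0.33, 0.50) and PHLDA1 (0.19, 0.26) rose and FOSL1 (-0.27, -0.74) fell. Those shares, 15.4% higher and 7.69% lower, are near those of all genes.

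In sugar metabolism and hypoxia targets, 10 of 30 tested genes rose (33.3%) and 6 fell (20%), against 11.4% and 9.25% of all genes, with a median of 0.11. CA12, a carbonic anhydrase induced by hypoxia, stood at 0.696 and 0.737 CPM with empty vector, 0.572 CPM in its replicate 2 and 4.31, 3.68 and 3.97 CPM with K17. That is a log2 fold change of 2.47 ± 0.163 (SE) at an edgeR adjusted p of 0.000135, against 2.57 over 6 libraries (edgeR adjusted p = 0.0152). HK2, the inducible hexokinase, stood at 14.4 and 13.9 CPM with empty vector, 9.24 CPM in its replicate 2 and 29.7, 31.3 and 29 CPM with K17 and rose by 1.08 log2 units (1.26). The glucose transporter SLC2A1 rose by 1.04 log2 units, NDRG1 by 0.79 (0.74) and VEGFA, the angiogenic growth factor, by 0.35 (0.53). The groups did not overlap in these genes in 6 libraries. Adrenomedullin, ADM, stood at 4.9 and 6.74 CPM with empty vector, 5.37 CPM in its replicate 2 and 2.74, 1.57 and 3.13 CPM with K17, with -1.23 (-1.19). The enolase ENO2 rose by 1.000 log2 units with replicate 2 above the K17 libraries (0.21). Leaving out any 1 library reduced the 6 that fell to 1 or 2. The lactate dehydrogenase LDHA had -0.10 (-0.17).

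Genes of the ATF4 and unfolded protein response rose in 9 of 23 tested (39.1%), with none lower (2 at an unadjusted p under 0.05 in edgeR, 2 by DESeq2 and 0 by limma-voom) and a median of 0.28. In the 6-library fit 0 passed in edgeR, while 5 were higher at an unadjusted p under 0.05 and 9 passed in limma with quality weights. VLDLR, a lipoprotein receptor, stood at 1.82 and 2.05 CPM with empty vector, 0.455 CPM in its replicate 2 and 5.4, 5.62 and 4.78 CPM with K17 and rose by 1.44 log2 units (1.87). GDF15, a secreted stress marker, stood at 14.9 and 13.8 CPM with empty vector, 30.7 CPM in its replicate 2 and 30.1, 32 and 30.9 CPM with K17 and rose by 1.11 log2 units (0.65), with replicate 2 within the range of the K17 libraries. The cystine transporter SLC7A11 stood at 59.1 and 55.9 CPM with empty vector, 17.1 CPM in its replicate 2 and 109, 96.4 and 92.1 CPM with K17 and rose by 0.78 log2 units (1.17). PHGDH, the first enzyme of serine synthesis, rose by 0.65 log2 units (0.44), HERPUD1 by 0.51 (0.55) and CEBPB by 0.59 (0.28). ATF4 itself, the factor that controls these genes, rose by 0.25 log2 units (-0.10), and replicate 2 lay above the K17 libraries in ATF4 and CEBPB. The chaperone genes CALR (-0.05) and HSP90B1 (-0.19) and the amino acid enzyme ASNS (0.17) did not pass.

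Pyrimidine genes bear on how cells handle nucleoside drugs. Synthesis genes passed only as falls over 5 libraries, and genes of salvage and breakdown only as rises. The second list mixes salvage with breakdown, and NT5E and SAMHD1, given below, break nucleotides down. The shares that follow are to be set against 9.25% of all genes lower and 11.4% higher. Of 19 tested synthesis genes none rose (1 higher at an unadjusted p under 0.05 in edgeR, 0 by DESeq2 and 1 by limma-voom) and 4 or 21.1% fell, with a median of -0.08. Lower were 9 at an unadjusted p under 0.05 in edgeR, 8 by DESeq2 and 4 by limma-voom. CAD, which holds the first enzymes of the pathway, stood at 6.8 and 9.42 CPM with empty vector, 33.7 CPM in its replicate 2 and 7.57, 7.45 and 4.76 CPM with K17, with -0.30 ± 0.24 (SE, edgeR adjusted p = 0.469). Its replicate 2 value lay above all other libraries, and the 6-library value of CAD was -1.33 (edgeR adjusted p = 0.573). DHODH, the mitochondrial enzyme of the pathway, stood at 2.81 and 2.4 CPM with empty vector, 3.16 CPM in its replicate 2 and 2.47, 3.18 and 2.52 CPM with K17, with 0.06 ± 0.175 (SE, edgeR adjusted p = 0.867). UMPS, the last enzyme, stood at 104 and 99.1 CPM with empty vector, 108 CPM in its replicate 2 and 90.7, 96.3 and 91.6 CPM with K17, with -0.13 ± 0.042 (SE, edgeR adjusted p = 0.0681). Over 6 libraries DHODH had -0.036, with its sign turned, and UMPS -0.16. CAD, DHODH and UMPS did not pass in either fit. Among those that fell were TYMS (-0.24, -0.52), NME4 (-0.25, -0.56) and NME1 (-0.15, -0.50). Without either empty vector library the 4 became 1, and without K17 replicate 1 or 3 they became 2. Of 20 tested genes of salvage and breakdown, 4 or 20% rose and none fell (0 lower at an unadjusted p under 0.05 and 0 by DESeq2 or limma-voom), with a median of 0.11. They were the nucleotidase NT5E, at 24.1 and 19.9 CPM with empty vector, 19.2 CPM in its replicate 2 and 35.8, 34.9 and 36.2 CPM with K17 with 0.70 (0.76), SAMHD1, which cleaves deoxynucleotides, at 58.5 and 59.5 CPM with empty vector, 54.9 CPM in its replicate 2 and 82.6, 84.7 and 82.3 CPM with K17 with 0.49 (0.53), NT5C2 (0.26, 0.39) and TK2 (0.35, 0.41). DCK, the kinase that activates gemcitabine, had -0.02 and did not pass. Of 17 tested genes of gemcitabine uptake and drug efflux, the exporter ABCC4 stood at 181 and 176 CPM with empty vector, 66.9 CPM in its replicate 2 and 294, 279.9 and 297 CPM with K17 and rose by 0.70 log2 units (1.04), and ABCC6 rose by 0.90 (0.11). The importer SLC29A1 stood at 68.1 and 65.1 CPM with empty vector, 105 CPM in its replicate 2 and 56.5, 56.2 and 61.6 CPM with K17 and fell with -0.20 (-0.45). Replicate 2 lay beyond the K17 libraries in ABCC6. In this list 11.8% rose and 5.88% fell, near or under the shares of all genes.

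The share of counts on mitochondrial DNA was 10.4%, 10.8% and 10.2% with K17 and 9.99% and 9.88% in empty vector replicates 1 and 3, a difference of 0.544 percentage points with no overlap. Replicate 2 was set aside with its high share in view, so the 5-library difference and its lack of overlap are a description. An exact two-sided permutation test gave p = 0.2, the smallest that 3 against 2 libraries allow, so it cannot decide the question. With replicate 2 the difference was -2.42 percentage points (exact permutation test, p = 1). Of the 13 protein genes of mitochondrial DNA, 23.1% rose and 15.4% fell, against 11.4% and 9.25% of all genes. MT-CO3 (0.25), MT-ATP6 (0.23) and MT-CO2 (0.16) rose and MT-ND5 (-0.20) and MT-ND6 (-0.22) fell. Their 6-library values, in the same order, were -0.17, -0.08, -0.41, -0.46 and -0.82, and none of the 13 passed there in edgeR (0 at an unadjusted p under 0.05, 3 in limma with quality weights). MT-ND6 stood at 3285 and 3149 CPM with empty vector, 8220.0 CPM in its replicate 2 and 2663, 2910.0 and 2737 CPM with K17, and is the 1 protein gene on the light strand, so its reads depend on the strand setting, which is not given in the sources used here. Of nuclear respiratory genes, 3 of 34 for complex I rose and 1 fell, 3 of 22 for complexes II to IV rose and 1 fell, and 1 of 16 for ATP synthase rose and 2 fell. These shares are near or under those of all genes, and the medians were 0.03, 0.08 and 0.04. For complex I, NDUFA2 (0.31, -0.05), NDUFB1 (0.19, -0.26) and NDUFA5 (0.14, 0.20) rose and NDUFB10 (-0.19, -0.64) fell. For complexes II to IV, UQCR10 (0.28, -0.19), COX5B (0.21, -0.23) and COX4I1 (0.13, -0.31) rose and SDHD (-0.46, -0.09) fell. Of the ATP synthase, ATP5MC1 (0.22, -0.14) rose and ATP5F1B (-0.30, 0.06) and ATP5PB (-0.11, -0.24) fell. Of 29 tested genes of import, dynamics and chaperones, 2 or 6.9% rose and 5 or 17.2% fell, with a median of -0.05. The protease LONP1 (0.36, 0.16) and TIMM44 (0.17, -0.07) rose, while the translocase subunits TIMM8A (-0.27, -0.23) and TOMM40 (-0.21, -0.50), the transcription factor TFAM (-0.26, 0.21) and the chaperone HSPA9 (-0.20, 0.03) fell. Of these, the 5 that fell became 3 without either empty vector library or K17 replicate 2 or 3. Without empty vector replicate 1, 0 genes of complexes I to IV rose, and without its replicate 3 the rises numbered 1 for complex I and 0 for the other complexes. The rises in complexes II to IV became 6 without K17 replicate 1, 0 without K17 replicate 2 and 1 without K17 replicate 3. Of the mitochondrial DNA genes, 0 rose without empty vector replicate 3 and 5 without K17 replicate 3. Replicate 2 lay beyond the K17 libraries in 16 of the 23 genes of these 5 mitochondrial lists that passed.

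Of 29 tested replication genes none rose (0 higher at an unadjusted p under 0.05 and 0 by DESeq2 or limma-voom) and 11 or 37.9% fell, with a median log2 fold change of -0.23. The cyclin CCNE1 stood at 29.4 and 29.2 CPM with empty vector, 33.9 CPM in its replicate 2 and 20.3, 19.6 and 24.4 CPM with K17. A fit with edgeR gave a log2 fold change of -0.45 ± 0.0992 (SE) at an edgeR adjusted p of 0.0196, against -0.52 over 6 libraries. MCM3, a subunit of the replicative helicase, stood at 41.1 and 43.6 CPM with empty vector, 77.2 CPM in its replicate 2 and 29.5, 30.7 and 36.8 CPM with K17, with -0.39 (-0.74). MCM10 stood at 149.7 and 148 CPM with empty vector, 87.3 CPM in its replicate 2 and 109.9, 108 and 99.2 CPM with K17, with -0.50 (-0.28), and CCNE2 had -0.52 (-0.09). RFC3, of the clamp loader, had -0.71 (-0.52), with replicate 2 within the K17 range, and POLA1, of the primase complex, -0.26 (0.05). Replicate 2 lay on the empty vector side for CCNE1 and MCM3 and below the K17 libraries for MCM10, CCNE2 and POLA1, and over the list it lay beyond them in 5 of the 11. The count of 11 fell to 4 without empty vector replicate 1, 7 without its replicate 3, 5 without K17 replicate 1 and 6 without K17 replicate 2, and was 9 without K17 replicate 3. Of 31 tested mitosis genes, 11 or 35.5% fell and 1 rose, with a median of -0.13. TPX2, a spindle protein, stood at 35.8 and 45.9 CPM with empty vector, 37.8 CPM in its replicate 2 and 26.3, 20.5 and 27.5 CPM with K17, with -0.72 (-0.69). The kinase AURKA stood at 354 and 352 CPM with empty vector, 332 CPM in its replicate 2 and 311, 306 and 297 CPM with K17, with -0.22 (-0.18), and KIF23 had -0.29 (-0.05). The kinase PLK4 (-0.31, 0.01), PRC1 (-0.25, 0.04) and the checkpoint gene MAD2L1 (-0.25, -0.15) fell too. CDC25B, a phosphatase that starts mitosis, rose by 0.37 log2 units (0.24), with replicate 2 within the K17 range. The proliferation marker MKI67 (-0.21) and the kinase PLK1 (-0.11) did not pass. In 8 of the 12 mitosis genes that passed, replicate 2 lay beyond the K17 libraries, among them KIF23, PLK4, PRC1 and MAD2L1. Without empty vector replicate 3, 6 mitosis genes were lower. With all 6 libraries none of the replication or mitosis genes passed in edgeR, with 3 replication genes and 1 mitosis gene lower at an unadjusted p under 0.05. In limma with quality weights 11 replication and 8 mitosis genes were lower.

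Markers of ductal epithelium were present in every library. KRT8 was at 578 CPM, KRT19 at 316 CPM, SOX9 at 145 CPM and EPCAM at 29.9 CPM in the means of empty vector replicates 1 and 3, where CFTR and KRT7 were under 1 CPM. MUC1 rose by 0.50 log2 units (0.14), with replicate 2 above the K17 libraries. Of markers of other cell types, 8 of 17 immune, 8 of 11 endothelial, 10 of 12 fibroblast and 2 of 13 acinar or islet genes had enough counts to be tested. Immune markers summed to 38.1 and 39.1 CPM in replicates 1 and 3, 54.3 CPM in replicate 2 and 38.4 to 45.6 CPM with K17. Most of that sum was CD68, at 34.9 CPM in the mean of replicates 1 and 3, while the leukocyte gene PTPRC stood at 0.567 CPM. CD79A was the 1 immune marker that rose, by 1.16 log2 units (0.92) from under 0.3 CPM, and CD3E and FCGR3A were at 0 in all 6 libraries. Endothelial markers summed to 4.83 and 5.97 CPM, 9.63 CPM and 5.30 to 5.32 CPM, and acinar and islet markers to 0.799 and 0.852 CPM, 1.60 CPM and 0.632 to 0.803 CPM, in the same order. None of them passed in edgeR, with 1 endothelial marker higher and 1 lower at an unadjusted p under 0.05. Endothelial PECAM1 had a log2 fold change of 0.69 and EGFL7 of -0.05, acinar CEL of -0.52 and CPB1 of -0.09, and AMY2A, INS and GCG were at 0. Fibroblast markers summed to 54.5 and 57.3 CPM, 83.1 CPM and 164 to 167 CPM. Most of the sum with K17 was COL1A1, at a mean of 139.8 CPM, against 22.05 CPM in the mean of replicates 1 and 3. COL1A1 rose, COL3A1 fell and THY1 fell with -0.89 (-1.21), while DCN, at 0.738 and 0.439 CPM with empty vector, 0.866 CPM in its replicate 2 and 0.665, 0.786 and 0.775 CPM with K17, and PDGFRB, at 0.199 and 0.423 CPM with empty vector, 0.0147 CPM in its replicate 2 and 0.487, 0.402 and 0.614 CPM with K17, did not pass. The part of these genes in the other results was not tested.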

How the data were processed

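RNA-seq was made from total RNA of PANC-1 cells with a TruSeq kit, per the labels' protocols. Raw counts per gene (column 2 of each file) were deposited by the authors, who named bcl2fastq 1.8.4, STAR 2.7.3a and kallisto 0.46.2 in the submitters' processing notes, and GRCh38 as the human build. Which tool counted the reads, and whether strand was used, is not given in the sources used here, so whether a row holds all reads of its gene is unknown. Of 34505 gene identifiers, 34474 were named from GENCODE 29.

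Empty vector replicates 1 and 3 were compared with the 3 K17 libraries in edgeR 4.0.16 (R 4.3.3) after filterByExpr and TMM scaling, with robust quasi-likelihood tests and Benjamini-Hochberg adjustment at 0.05. The same fit over all 6 libraries stands beside it. CPM are counts scaled to a common library size with 6-library TMM factors. Alternatives were other scalings and filters, DESeq2 1.42.0, limma 3.58.1 (voom and quality weights), a replicate block and leaving out each library. The scripts were tested on simulated counts.

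The text names KRT17 and called keratins, the 15 highest and 15 lowest log2 fold changes among called, non-overlapping genes with a mean of at least 5 CPM over the 5 libraries (no clone names or pseudogenes), up to 6 called members of each list with the largest change (or its 2 most abundant tested members), and DHODH, CAD and UMPS. Other named members were chosen after their values were seen. Some list members that the rule names are not reported here. The comparison, its libraries and the gene lists were chosen with earlier results of these data known. Motifs were sought in RefSeq promoters of GRCh38.p14, matched by symbol for 10944 of the tested genes.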

Additional observations from a re-analysis of the deposited data

How the results depend on the processing

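Over the settings with the 5 libraries, edgeR with other scaling factors or filters, DESeq2 and limma-voom called from 3370 (limma-voom) to 3871 (DESeq2) genes. Upper-quartile scaling moved the median log2 fold change of all genes to -0.044 and gave 1549 higher and 2193 lower. No named gene that was called turned its direction under these settings, and limma-voom gave the same call for 270 of the 277 named genes. Of the 277, 56 lost their call without empty vector replicate 1, 64 without its replicate 3 and 29 to 30 without a K17 library. Where a list had 1 or 2 called members in a direction, leaving out 1 library changed that count by up to 2. Leaving out 1 of the 5 libraries left 2053 to 2837 genes called, 1151 to 1593 higher and 802 to 1244 lower, with the lowest counts without empty vector replicate 1 (2053) or 3 (2058), where 1 empty vector library remained and was assumed to vary like the K17 libraries. KRT17 stayed called with log2 fold changes of 12.27 to 16.19, and the mitochondrial DNA share differed by 0.385 to 0.673 percentage points.

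Empty vector replicate 2 was the library that changed most. With all 6 libraries 105 genes were called, 95 higher and 10 lower. From there, leaving out 1 library left 0 to 3442 genes called: 3442 without empty vector replicate 2, 1 without its replicate 1, and 0 without any other library, with 979 to 1713 genes at an unadjusted p under 0.05 in edgeR where replicate 2 was kept. Weighting libraries by quality in limma gave replicate 2 a weight of 0.0274 and called 3030 genes, 1870 higher and 1160 lower. Without the mitochondrial DNA genes 73 were called over 6 libraries, 64 higher and 9 lower. The mitochondrial DNA share differed by -2.42 percentage points over 6 libraries. From here on, turns of direction are listed only for named genes called over 5 libraries. DHODH (0.06, -0.036), which turned without being called, is therefore left out. In 28 named genes replicate 2 turned the log2 fold change over 6 libraries: KRT8 -0.18, LMNB1 0.12, LAMB1 -0.023, COL18A1 -0.22, ZEB1 0.14, TGFB1 -0.14, TGFB2 0.073, F3 -0.31, MT-CO3 -0.17, MT-ATP6 -0.080, MT-CO2 -0.41, NDUFA2 -0.046, NDUFB1 -0.26, UQCR10 -0.19, COX5B -0.23, COX4I1 -0.31, ATP5F1B 0.062, ATP5MC1 -0.14, TFAM 0.21, HSPA9 0.034, TIMM44 -0.073, POLA1 0.054, PLK4 0.014, PRC1 0.043, ATF4 -0.099, ITGB1 0.11, RYK 0.081 and STAT2 -0.088. Without mitochondrial DNA genes the values that turned were KRT8 -0.24, LMNB1 0.058, LAMB1 -0.081, ITGA3 -0.040, COL18A1 -0.28, ZEB1 0.074, TGFB1 -0.20, TGFB2 0.0098, F3 -0.37, NDUFA2 -0.11, NDUFB1 -0.32, UQCR10 -0.25, COX5B -0.29, COX4I1 -0.37, ATP5MC1 -0.20, TFAM 0.14, TIMM44 -0.13, DDB2 -0.022, WNT5B -0.013, ATF4 -0.16, ITGB1 0.046, RYK 0.018 and STAT2 -0.15. None of these passed in that setting, and the cause was not tested.

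The correlations of same-numbered deviations from the group means were 0.0533, 0.0863 and 0.022. The empty vector mean included replicate 2, and empty vector replicates 1 and 3 gave near-equal correlations, such as 0.0533 and 0.0546 with K17 replicate 1. These values therefore cannot tell whether replicate numbers pair the libraries. With a replicate block, 2252 genes were called over 5 libraries, 1266 higher and 986 lower. With a replicate block and all 6 libraries 0 were called, 0 higher and 0 lower, with 1262 at an unadjusted p under 0.05 in edgeR, and KRT17 kept 13.65 (edgeR adjusted p = 0.262). The named genes that turned there were PLK2 0.13, TRPA1 0.21, KRT8 -0.12, LMNB1 0.84, COL18A1 -0.050, ZEB1 0.30, TGFB1 -0.056, TGFB2 0.17, MT-CO3 -0.088, MT-ATP6 -0.031, MT-CO2 -0.27, NDUFB1 -0.16, SDHD 0.063, UQCR10 -0.089, COX5B -0.14, COX4I1 -0.22, ATP5F1B 0.21, ATP5MC1 -0.076, TFAM 0.53, HSPA9 0.082, TIMM44 -0.040, CCNE2 0.17, POLA1 0.15, PLK4 0.13, KIF23 0.0074, PRC1 0.13, SESN1 0.0090, ATF4 -0.035, ITGB1 0.48 and RYK 0.11.

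The libraries held 59671178 to 70789559 counts, and what depth limits was not tested by thinning them. Errors were wide for genes at low counts: CDH1, at 0.37 CPM with empty vector, had 1.21 ± 0.615 (SE) and did not pass. Other limits lie in 2 empty vector libraries that resemble each other, 1 that does not, and groups whose clone and culture cannot be told apart from K17. On counts simulated for the 5-library comparison, the share of wrong calls ran above the nominal level. The counting tool is not given in the sources used here.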
